A study of Sus scrofa with 80 samples.

Results

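The genes described here are the chaperones and protein folding factors of the pig that the Porcine GeneChip measured in 5 endocrine tissues. They were chosen by a rule on names and not on values, though earlier results of these data were known. A gene was taken when the annotation of the array gave 1 symbol and this symbol began with HSP, DNAJ, CCT followed by a digit, or PDIA, or was CALR, CANX or CLGN. Where a gene had several probesets, which are the sets of short probes that measure 1 transcript, the probeset of the highest mean stood for it. This rule found 56 of the 6765 named genes, through 97 probesets. CLGN was not measured here. By role the genes comprised 10 of the endoplasmic reticulum, 9 of the HSP70 and HSP110 families, 2 cytosolic HSP90 genes, 5 subunits of the chaperonin TRiC, 6 mitochondrial genes, 16 other J proteins and 6 small heat shock proteins. The last pair were HSPBP1, a co-chaperone of HSP70, and HSPB11, which carries a heat shock symbol but encodes a subunit of intraflagellar transport.

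Chaperones bind unfolded or partly folded proteins and keep them from aggregating while they reach their final shape. HSP70 proteins do this in cycles of ATP hydrolysis that J proteins (the DNAJ genes) start, HSP90 acts late on kinases and steroid receptors, and TRiC folds actin and tubulin inside a closed chamber. In the endoplasmic reticulum, HSPA5 (BiP), HSP90B1 (GRP94), calnexin, calreticulin and the disulfide isomerases of the PDIA genes fold the proteins that a gland secretes, such as pituitary hormones and thyroglobulin.

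Hypothalamus, adenohypophysis, thyroid gland, gonad and backfat of 16 pigs gave 80 arrays, 1 for each pig and tissue, from RNA of whole pieces of tissue. Large White, Duroc and Iberian pigs were 2 males and 2 females each, and Youli pigs, a synthetic maternal line, were 3 males and 1 female, so that 9 gonads were testes and 7 were ovaries. At slaughter the mean age and weight were 87 days and 27.2 kg in Large White, 83 days and 23.1 kg in Duroc, 80 days and 18.9 kg in Youli and 89 days and 17.4 kg in Iberian pigs. All animals ate the same diet and were fasted before they were killed. The animals received no treatment, and tissues, breeds and sexes are the groups compared. Values are log2 intensities, on which a difference of 1 is a doubling, and levels of different probesets are not comparable with each other.

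Defining markers were checked first. Neuronal and glial markers averaged log2 12.02 to 12.45 in the hypothalamus, pituitary markers 12.47 to 12.93 in the adenohypophysis, thyroid markers (3 of 6 measured) 10.34 to 11.72 in the thyroid, Leydig cell markers 10.33 to 12.25 and Sertoli cell markers 6.68 to 9.26 in testis, and adipocyte markers (4 of 6 measured) 9.66 to 11.80 in backfat and 4.32 to 9.32 in the thyroid. Smooth muscle markers (5 of 6 measured) lay between 4.05 and 8.002 over all arrays, and JCHAIN, the measured gene of 4 plasma cell markers, between 4.96 and 11.52. These list means hide single markers that departed from them. MBP lay between 8.08 and 8.66 in the thyroid, beside 8.17 to 8.88 in the hypothalamus. LEP had a median of 2.72 in backfat, and FOXL2, of the oocyte and granulosa list, lay between 1.81 and 1.88 in ovary. A few arrays stood apart. The ovary array of Iberian female IBF25 had a mean log2 of 2.53 over 8 oocyte and granulosa markers, against 7.79 to 9.53 in the other ovaries. It was also lowest in Leydig cell markers (2.19 against 4.07 to 10.87) and in Sertoli cell markers (1.92 against 6.84 to 7.36), which granulosa cells share in part, and highest in smooth muscle markers (8.002 against 6.44 to 7.03), so that the markers go against its label. Skeletal muscle markers (8 of 12 measured) averaged 14.36 in the backfat of Youli male YLM19 and 9.79 and 9.41 in the backfat of Duroc pigs DUM12 and DUF14, with a median of 2.98 in the backfat arrays other than YLM19. This array also had the lowest adipocyte markers, 9.66 against 10.67 to 11.80, and spermatid markers at 5.55, against 2.74 or lower. Spermatid markers (5 of 10 measured) averaged 10.43, 9.86 and 7.997 in the testes of Youli males YLM19 and YLM20 and Large White male LWM02, and the others lay at log2 3.09 or lower. Pituitary markers averaged 8.72 and 5.94 in the thyroid of YLM20 and YLM19 and 6.17 in the hypothalamus of YLM19. Calls were recomputed without each of these sets of arrays. For 11 of the 16 thyroid arrays the title disagreed with the breed and sex fields, and the title was used. By title these included every Duroc and every Iberian thyroid array. Breed and sex from the fields, and a tissue fit without these 11 arrays, were among the alternatives run.

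Each tissue was compared with the mean of the other 5 classes, testis and ovary being separate classes. A gene was called at an adjusted p below 0.05 in limma and an absolute difference of at least 1. In the hypothalamus 11 members were higher and 6 lower, where 12.7% and 17.4% of all named genes were called. In the adenohypophysis 9 were higher and 2 lower, against 9.12% and 12.5% of all named genes. The thyroid gland had 6 higher (9.90% of named genes) and 5 lower (9.45%). Testis had 3 higher (10.9%) and 4 lower (9.84%), ovary 2 higher (10.1%) and 4 lower (7.46%), and backfat 2 higher (13.1%) and 12 lower (11.9%). As a share of the 56 members, these counts lay between 3.57%, the share higher in ovary or in backfat, and 21.4%, the share lower in backfat. The last share depends on the array level, since array medians lay between 4.67 and 4.77 in backfat. With each array centred on its median, DNAJB2, HSP90AA1, PDIA3 and PDIA6 were no longer called lower there. The median difference of the members was -0.36 in the thyroid and -0.28 in backfat, beside -0.01 and 0.00 over all named genes, and -0.06 in the hypothalamus beside -0.14. It was 0.16 in the adenohypophysis, 0.12 in testis and 0.14 in ovary, beside -0.05, -0.01 and -0.03. In pieces of whole tissue, fewer cells of a type and less RNA per cell cannot be told apart.

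**Figure D1:**
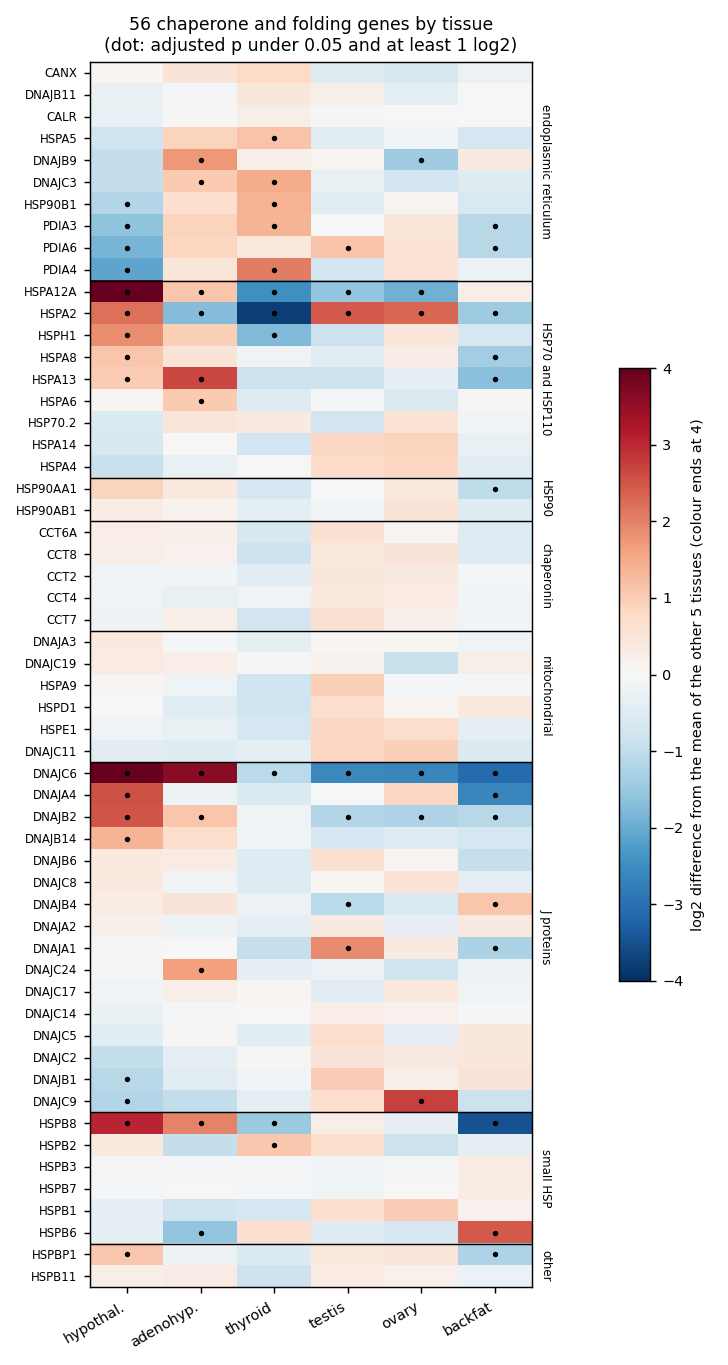
Log2 difference of each of the 56 genes (rows, grouped by role) between a tissue (columns) and the mean of the other 5 tissue classes, in colour, over 16 arrays per tissue (9 testes and 7 ovaries). Dots mark adjusted p below 0.05 with a difference of at least 1 in size. The endoplasmic reticulum rows run from -2.11 for PDIA4 in the hypothalamus to 2.03 for PDIA4 in the thyroid gland, and DNAJC6 has the largest value at 5.78, past the end of the colour scale.

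In the endoplasmic reticulum the thyroid gland and the adenohypophysis stood at one end and the hypothalamus at the other. In the thyroid 5 of the 10 genes were called higher and 0 lower, with a median difference of 0.96. In the adenohypophysis 2 were higher and 0 lower, with a median of 0.77. In the hypothalamus 0 were higher and 4 lower, with a median of -0.96. Among all named genes 9.90% were higher and 9.45% lower in the thyroid. These shares were 9.12% and 12.5% in the adenohypophysis, and 12.7% and 17.4% in the hypothalamus. HSPA13, DNAJB14 and DNAJC14, which also lie at the reticulum, are described with the HSP70 family and the other J proteins. HSPA13 and DNAJB14 were called higher in the hypothalamus.

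PDIA4, a disulfide isomerase of the reticulum, had the widest span of these genes. It ranged from 10.20 to 11.83 in the thyroid (median 11.32), from 9.65 to 10.50 in the adenohypophysis (median 9.91) and from 7.45 to 8.35 in the hypothalamus (median 7.77). All 16 hypothalamus arrays were below all 16 adenohypophysis and all 16 thyroid arrays. The difference from the other tissues was 2.03 ± 0.09 (SE) in the thyroid (adjusted p = 5.1e-31) and -2.11 ± 0.09 in the hypothalamus (adjusted p = 1.6e-32).

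HSPA5 is the HSP70 of the reticulum, and while it is free it holds the sensors of the unfolded protein response inactive. Its values ran from 12.91 to 14.25 in the thyroid (median 13.81), from 13.39 to 13.76 in the adenohypophysis (median 13.57), from 12.54 to 12.96 in ovary, from 12.20 to 12.65 in testis, from 11.73 to 12.59 in the hypothalamus (median 12.16) and from 11.27 to 12.83 in backfat (median 12.43). Thyroid and adenohypophysis overlapped, and every adenohypophysis array was above every array of the hypothalamus, the gonads and backfat. The thyroid difference was 1.15 ± 0.08 (adjusted p = 9.0e-22). The adenohypophysis difference of 0.90 ± 0.08 (adjusted p = 1.1e-16) did not reach 1.

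HSP90B1, which folds integrins and Toll-like receptors, lay between 12.42 and 14.07 in the thyroid (median 13.42) and between 11.05 and 11.59 in the hypothalamus (median 11.24), with no overlap. It differed by 1.38 ± 0.08 in the thyroid (adjusted p = 2.6e-24) and by -1.16 ± 0.08 in the hypothalamus (adjusted p = 1.0e-20). PDIA3 (ERp57), which works with calnexin and calreticulin on glycoproteins, was between 11.53 and 12.72 in the thyroid (median 12.30), between 9.16 and 9.99 in the hypothalamus (median 9.81) and between 9.002 and 10.80 in backfat (median 10.34). Hypothalamus and backfat overlapped, and both lay below every thyroid array. Its differences were 1.37 ± 0.10 in the thyroid, -1.61 ± 0.10 in the hypothalamus and -1.11 ± 0.10 in backfat, the last of which became -0.95 once arrays were centred on their medians.

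PDIA6 followed another order. It was highest in testis, where it ranged from 11.76 to 12.60 (median 12.29), close to the adenohypophysis with 11.65 to 12.34 (median 12.03), and lowest in the hypothalamus with 9.49 to 10.11 (median 9.71). Testis and adenohypophysis overlapped, whereas the hypothalamus lay below both. The difference was 1.15 ± 0.10 in testis (adjusted p = 5.2e-17), -1.87 ± 0.07 in the hypothalamus (adjusted p = 2.2e-36) and -1.10 ± 0.07 in backfat.

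Of the J proteins of the reticulum, DNAJB9 (ERdj4), which hands misfolded proteins to degradation, ranged from 10.42 to 11.43 in the adenohypophysis (median 11.04) and from 8.14 to 8.89 in ovary (median 8.34). It was called higher in the adenohypophysis by 1.72 ± 0.09 (adjusted p = 2.5e-27) and lower in ovary by -1.44 ± 0.14 (adjusted p = 4.7e-14). DNAJC3 (p58IPK), an inhibitor of the kinase PERK, ranged from 7.41 to 9.37 in the thyroid (median 8.55), from 7.51 to 8.75 in the adenohypophysis (median 8.24) and from 5.86 to 6.86 in the hypothalamus (median 6.55). It was called higher in the thyroid (1.48 ± 0.11) and in the adenohypophysis (1.06 ± 0.11), and the second call was lost with the mean of its probesets (0.77). The third, DNAJB11 (ERdj3), had a difference of 0.47 in the thyroid and was called in no tissue.

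The lectin chaperones moved less. Calnexin (CANX) was between 11.70 and 12.46 in the thyroid (median 12.18) and between 10.80 and 11.52 in testis (median 11.16), with differences of 0.77 and -0.47 that were below 1 in size. Its probeset of largest SD gave 1.34 and -1.21, and -1.88 in ovary, all called. Calreticulin (CALR) was measured at a median between 5.70 in the hypothalamus and 6.22 in the thyroid, and its ranges overlapped in every tissue. Its difference was at most 0.29 in size, in the hypothalamus (-0.29 ± 0.10, adjusted p = 0.0105). The thyroid values of all 5 called genes were as large without the thyroid arrays of YLM19 and YLM20, with 2.03 for PDIA4, 1.16 for HSPA5 and 1.38 for HSP90B1.

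**Figure D2:**
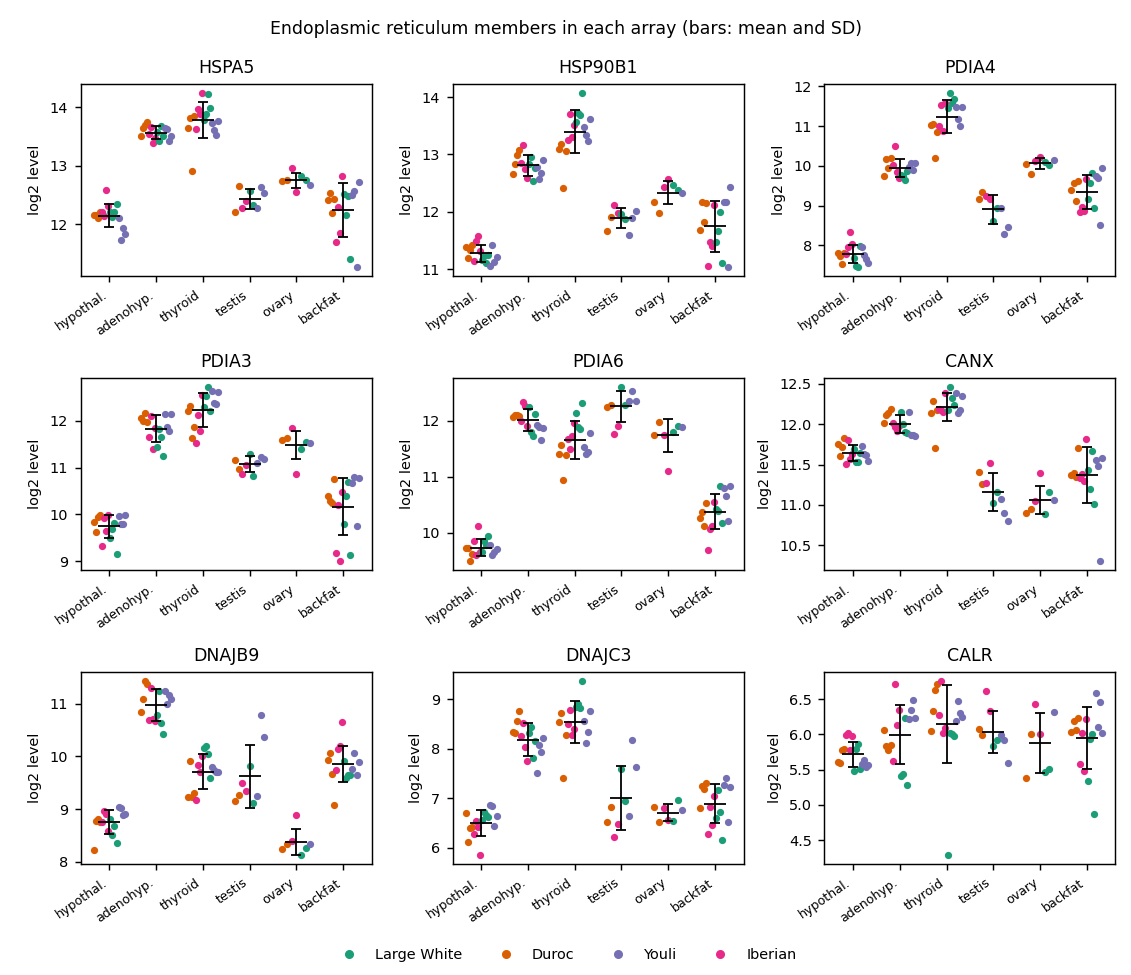
Log2 level (y axis) of 9 endoplasmic reticulum genes in each array, by tissue (x axis), with 1 point for each array coloured by breed and bars for the mean and SD. PDIA4 lies between 10.20 and 11.83 in the thyroid gland and between 7.45 and 8.35 in the hypothalamus, whereas CALR overlaps between all tissues.

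By their median difference the HSP70 and HSP110 genes stood high in the hypothalamus and low in the thyroid, though not every gene did. In the hypothalamus 5 of 9 were called higher and 0 lower (median 1.01), and in the thyroid 0 were higher and 3 lower (median -0.75). Among all named genes 12.7% were higher and 17.4% lower in the hypothalamus, and 9.90% higher and 9.45% lower in the thyroid. HSPA4 (-0.89), HSPA14 (-0.63) and HSP70.2 (-0.59) had negative differences in the hypothalamus. In the thyroid HSP70.2 (0.37) and HSPA4 (0.01) had positive ones. Backfat also had 0 of the 9 higher and 3 lower (median -0.46), beside 13.1% and 11.9% of all named genes. HSPA12A, a distant HSP70 relative, ranged from 7.79 to 10.73 in the hypothalamus (median 8.75), above all 64 other arrays, whose highest value was 7.22. Its difference there was 4.58 ± 0.17 (adjusted p = 3.2e-37). It was also higher in the adenohypophysis (1.10 ± 0.17), and lower in testis (-1.56 ± 0.23), ovary (-1.93 ± 0.26) and thyroid (-2.44 ± 0.17), where all 16 arrays lay between 2.88 and 3.36.

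HSPA13 (STCH), a microsomal HSP70 with only the ATPase part, was the gene of this family with the highest difference in the adenohypophysis. It ranged there from 11.66 to 12.61 (median 12.29), and the highest of the other 64 arrays was 11.19. The difference was 2.68 ± 0.09 (adjusted p = 7.3e-41). In the hypothalamus, at 10.26 to 11.19 (median 10.89), the difference was 1.01 ± 0.09, which came to 0.97 without the array labelled ovary of IBF25 and 0.94 without all arrays of that pig, below the limit of 1. Backfat was lowest with 7.88 to 9.43 (median 8.76) and a difference of -1.66 ± 0.09.

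HSPA2, the HSP70 that mouse spermatocytes need for meiosis, was high in 3 classes and low in the other 3. It ranged from 8.60 to 10.74 in the hypothalamus (median 9.96), from 8.66 to 11.65 in testis (median 9.83) and from 9.69 to 10.43 in ovary (median 9.83), but from 3.51 to 6.90 in the thyroid (median 4.87). No thyroid array reached the lowest hypothalamus or gonad array. The differences were 2.19 ± 0.29 in the hypothalamus, 2.44 ± 0.39 in testis, 2.30 ± 0.44 in ovary, -1.74 ± 0.29 in the adenohypophysis, -1.42 ± 0.29 in backfat and -3.77 ± 0.29 in the thyroid (adjusted p = 2.8e-19).

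Within the testes HSPA2 was highest in the 3 arrays with spermatid markers, at 11.65 in YLM19, 11.33 in LWM02 and 11.01 in YLM20, and the other 6 lay between 8.66 and 10.09. HORMAD1, the measured gene of 7 meiosis markers, ranged from 4.50 to 9.87 over the testes and was highest in the same 3, at 9.87, 9.77 and 9.05. Without them the testis difference was 1.72 (adjusted p = 9.3e-04). The part of germ cells in the result was not tested.

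HSPH1 (HSP110), which resets HSP70 by nucleotide exchange, was highest in the hypothalamus with 11.47 to 13.03 (median 11.83) and lowest in the thyroid with 8.29 to 9.85 (median 8.78). These ranges did not overlap, with differences of 1.87 ± 0.125 (adjusted p = 1.1e-22) and -1.78 ± 0.125 (adjusted p = 3.1e-21). HSPA8 (HSC70), the constitutive HSP70 of the cytosol, had its highest values in the hypothalamus, from 13.39 to 13.92 (median 13.65), and its lowest in backfat, from 10.53 to 12.42 (median 11.55). The differences were 1.11 ± 0.08 (adjusted p = 1.6e-20) and -1.40 ± 0.08 (adjusted p = 1.8e-25).

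The inducible HSP70, listed as HSP70.2 and with near-identical copies that the probes may not separate, was called in no tissue. Its medians lay between 10.34 in testis and 11.46 in the adenohypophysis, and its differences between -0.72 and 0.56. HSPA6 was higher in the adenohypophysis by 1.05 ± 0.10. HSPA14 and HSPA4 were called in no tissue in the main comparison. Without the array labelled ovary of IBF25, HSPA14 was called higher in ovary, at 1.07 (adjusted p = 5.7e-09) where all arrays gave 0.90. The probesets of HSPA4 disagreed, and the one with the largest SD gave 1.16 in the hypothalamus and -2.23 in backfat, where the probeset used gave -0.89 and -0.46.

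**Figure D3:**
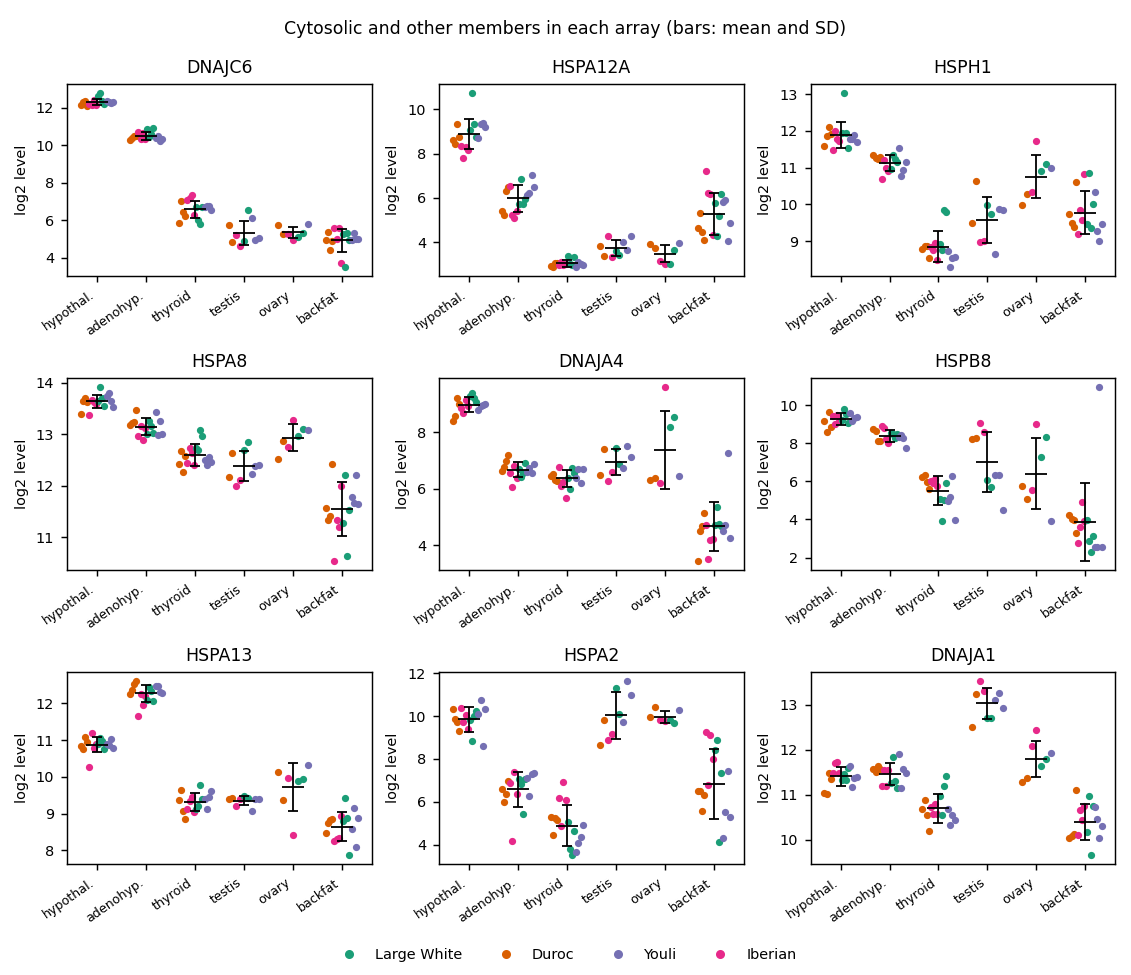
Log2 level (y axis) of 9 cytosolic and other members in each array, by tissue (x axis), with 1 point for each array coloured by breed and bars for the mean and SD. DNAJC6 and HSPA12A in the hypothalamus and DNAJA1 in testis lie above every other array, and the backfat array of YLM19 stands at 10.96 for HSPB8.

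The 2 cytosolic HSP90 genes spanned less. HSP90AB1, the constitutive form, ranged from 12.54 to 13.02 in the hypothalamus (median 12.80), from 12.77 to 13.20 in ovary (median 12.89) and from 11.70 to 12.38 in backfat (median 12.14), and was called in no tissue. HSP90AA1, the inducible form, ranged from 13.17 to 13.65 in the hypothalamus (median 13.48) and from 11.68 to 12.51 in backfat (median 11.81), again without overlap. Its hypothalamus difference of 0.89 ± 0.06 (adjusted p = 5.1e-24) was below 1. The gene was called higher there with the probeset of largest SD (1.82), the mean of its probesets (1.11) and quantile normalization (1.17). It was called lower in backfat at -1.01 ± 0.06, just past the limit. Without the arrays of LWM02, LWM04, DUF14, YLM19, YLM20 or IBF25 in turn it lay just inside the limit, between -0.985 and -0.996, and without the 3 testes with spermatid markers it was -0.963. That call depends on the probeset, since the one with the largest SD gave 0.05 in backfat and -1.75 in ovary, where the probeset used gave 0.40.

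Of the 5 TRiC subunits that the naming rule took, 0 were called in any tissue. A sixth subunit, TCP1 (CCT1), has another name and is counted with the co-chaperones below, and its difference was 0.81 in testis and -0.68 in the thyroid, also below 1. All 5 had a positive difference in testis, between 0.40 for CCT4 and 0.62 for CCT7, and a negative one in the thyroid, between -0.82 for CCT8 and -0.14 for CCT4. In testis CCT7 ranged from 10.81 to 11.39 (median 10.9998) and in the thyroid from 9.61 to 10.45 (median 9.92). CCT2, CCT4 and CCT6A had their highest median in testis too, at 11.81, 11.85 and 10.59. CCT8 was nearly level between testis (median 10.85) and ovary (median 10.94).

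None of the 6 mitochondrial genes was called in a tissue in the main comparison, though their median difference was 0.77 in testis and -0.52 in the thyroid. HSPA9 (mortalin), the motor of import into the matrix, ranged from 11.29 to 11.96 in testis (median 11.44) and from 9.74 to 11.24 in the other 71 arrays. The testis difference of 0.95 ± 0.08 (adjusted p = 2.0e-18) stayed below 1. It was 1.06 without the 3 testes with spermatid markers and 1.88 with the probeset of largest SD. The matrix chaperonin HSPD1 (HSP60) was between 11.51 and 12.85 in testis (median 12.28) and between 10.85 and 11.31 in the thyroid (median 11.05). Its partner HSPE1 (HSP10) was between 13.22 and 13.65 in testis (median 13.35), between 13.18 and 13.46 in ovary (median 13.26) and between 11.85 and 12.49 in the thyroid (median 12.02). For HSPE1 both gonads lay above all 64 arrays of the other tissues, whose highest value was 12.87, and for HSPD1 testis and backfat overlapped. DNAJC19, of the import motor of the inner membrane, was lower in every ovary than in any other array, at 7.63 to 8.27 against 8.29 to 9.48, with a difference of -0.89 ± 0.11 (adjusted p = 1.5e-10). The others of the group were DNAJA3 (TID1) and DNAJC11. For DNAJC11 the ovary difference was 0.94 with all arrays, not called. Without the array labelled ovary of IBF25 it was 1.16 (adjusted p = 8.0e-11) and called.

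Among the 16 other J proteins, DNAJC6 (auxilin) had the largest tissue difference of all members. It is the neuronal cofactor that lets HSC70 strip clathrin from vesicles. It ranged from 12.10 to 12.80 in the hypothalamus (median 12.30) and from 10.22 to 10.90 in the adenohypophysis (median 10.46), and no array of the other tissues was above 7.37. The difference was 5.78 ± 0.12 in the hypothalamus (adjusted p = 4.5e-53) and 3.59 ± 0.12 in the adenohypophysis (adjusted p = 3.4e-39). All other classes were called lower than the mean of the rest, which these 2 tissues raise, by between -1.09 in the thyroid and -3.09 in backfat. The thyroid mean of 6.59 was above those of testis (5.33), ovary (5.35) and backfat (4.93). Neuronal and glial markers averaged 12.02 to 12.45 in the hypothalamus, 7.02 to 8.46 in the adenohypophysis and 4.32 or less elsewhere. In the adenohypophysis these markers were mixed. Their medians were 12.15 for SNAP25, 9.06 for NEFL, 8.45 for MBP, 7.23 for SYT1, 3.38 for MOBP and 3.20 for GFAP. In the thyroid MBP lay between 8.08 and 8.66 and SNAP25 between 2.09 and 7.75, and the others had medians of 3.19 or lower. The part of these markers in the result was not tested.

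DNAJB2 (HSJ1), a neuronal J protein that passes clients to the proteasome, ranged from 8.84 to 10.19 in the hypothalamus (median 9.51) and from 7.84 to 8.85 in the adenohypophysis (median 8.26). All other classes were at or below 7.64. The differences were 2.53 ± 0.10 and 1.10 ± 0.10, and those of testis, ovary and backfat were -1.17, -1.23 and -1.10. DNAJA4, a J protein of the cytosol, ranged from 8.42 to 9.41 in the hypothalamus (median 8.99) and from 3.43 to 7.25 in backfat (median 4.68), with differences of 2.56 ± 0.17 and -2.62 ± 0.17. DNAJB14, anchored in the membrane of the reticulum, ranged from 8.41 to 8.97 in the hypothalamus (median 8.66) and was 1.35 ± 0.07 higher, or 0.66 with the mean of its probesets, which ended the call.

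DNAJA1 (HDJ2), which stimulates HSC70 in the folding and import of proteins, was higher in every testis than in any other array. Its 9 testis values lay between 12.49 and 13.53 (median 13.10), and the highest of the other 71 arrays was 12.44, the array labelled ovary of IBF25. The difference was 1.90 ± 0.12 in testis (adjusted p = 1.1e-23) and -1.28 ± 0.09 in backfat (adjusted p = 4.8e-22), where the mean of its probesets gave -0.78 and no call. In backfat it ranged from 9.66 to 11.11 (median 10.37).

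DNAJC24 (DPH4), which acts in the synthesis of diphthamide on elongation factor EEF2, ranged from 8.59 to 9.63 in the adenohypophysis (median 8.86), above all 64 other arrays, which ended at 8.12. The difference was 1.65 ± 0.08 (adjusted p = 6.5e-29). DNAJC9, a histone chaperone, was low outside the gonads. It ranged from 4.71 to 7.40 in ovary (median 5.93), from 3.62 to 5.39 in testis (median 4.42) and from 2.64 to 4.41 in the other tissues. It was called higher in ovary (2.74 ± 0.21, adjusted p = 5.6e-19) and lower in the hypothalamus (-1.16 ± 0.14). The hypothalamus mean of 2.97 lay close to those of the adenohypophysis (3.11) and backfat (3.22), all of them dim.

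DNAJB4, expressed in muscle and fat, ranged from 9.38 to 10.71 in backfat (median 10.04) and from 7.57 to 8.75 in testis (median 8.39). Its difference was 1.12 ± 0.08 in backfat and -1.09 ± 0.11 in testis, and the testis value came to -0.91 without the 3 testes with spermatid markers, which ended that call. DNAJB1 (HSP40), the main heat-inducible J protein, was lowest in the hypothalamus, from 6.19 to 7.59 (median 6.96), with a difference of -1.12 ± 0.17 (adjusted p = 1.2e-08). Immediate early genes (6 of 8 measured), which respond to stimuli within minutes, averaged 6.33 to 7.01 in the hypothalamus and 8.29 to 9.75 in backfat. In testis, where the mean of DNAJB1 was highest (8.66), they averaged 6.19 to 7.95, lowest in YLM19. They averaged 6.90 to 9.58 in the adenohypophysis, 6.39 to 8.03 in the thyroid and 7.78 to 8.89 in ovary. The part of these genes in the result was not tested.

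In testis DNAJB1 spread from 6.97 to 10.80 (median 8.18). The 3 highest testes were again YLM19 at 10.80, YLM20 at 10.04 and LWM02 at 9.61, and the other 6 lay between 6.97 and 8.70. The testis difference was 0.99 ± 0.22 (adjusted p = 1.2e-04) with all arrays and 0.27 (adjusted p = 0.353) without these 3, and the call in the hypothalamus became -0.97. The part of spermatids in these values was not tested. Of the remaining J proteins, DNAJA2, DNAJB6, DNAJC2, DNAJC5, DNAJC8, DNAJC14 and DNAJC17 were called in no tissue.

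The small heat shock proteins, ATP-independent holders of unfolding proteins that muscle is rich in, included the gene with the largest SD between animals. HSPB8 (HSP22), which works with BAG3 in autophagy, ranged from 8.58 to 9.80 in the hypothalamus (median 9.27) and from 7.73 to 8.90 in the adenohypophysis (median 8.40). In backfat it was at 10.96 in YLM19 and between 2.32 and 4.8997 in the other 15 arrays. The difference was 3.03 ± 0.35 in the hypothalamus (adjusted p = 3.6e-12) and 1.97 ± 0.35 in the adenohypophysis. In the thyroid, at 3.93 to 6.34 (median 5.84), it was -1.47 ± 0.35. In backfat it was -3.47 ± 0.35 (adjusted p = 2.8e-14), and -3.98 without YLM19.

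HSPB6 (HSP20), a partner of actin and 14-3-3 proteins, ranged from 7.84 to 10.49 in backfat (median 8.81), above the 64 other arrays, which ended at 7.80. The difference was 2.46 ± 0.16 (adjusted p = 5.2e-23) and 2.36 without YLM19. Its lowest values came from the adenohypophysis, from 3.91 to 6.57 (median 5.67), at -1.58 ± 0.16. HSPB1 (HSP27) had its highest median in ovary, 11.002 with a range from 10.37 to 11.23, and a difference there of 1.00 ± 0.13 that came to 0.9995 before rounding and was not called. It was called, at between 1.001 and 1.10, in 10 of the 16 fits that left out 1 animal.

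HSPB2, the muscle partner of HSPB3, ranged from 5.70 to 7.02 in the thyroid (median 6.35) and was 1.07 ± 0.17 higher there. In backfat it was at 8.59 in YLM19 and between 4.41 and 5.67 in the others. HSPB3 and HSPB7, both genes of heart and skeletal muscle, did not differ by tissue past the limit. In YLM19 backfat they stood at 6.66 and 9.05, and in the other 15 backfat arrays between 2.63 and 2.78 and between 5.54 and 5.73. These genes therefore had 1 high array in this tissue, the one with the highest skeletal muscle markers, at 14.36. The backfat arrays of DUM12 and DUF14, with muscle markers of 9.79 and 9.41, had HSPB8 at 3.98 and 4.01, inside the range of the rest. The part of muscle in the values was not tested. Of the last pair, HSPBP1 was higher in the hypothalamus (1.07 ± 0.13) and lower in backfat (-1.24 ± 0.13), and HSPB11 was called in no tissue.

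**Figure D4:**
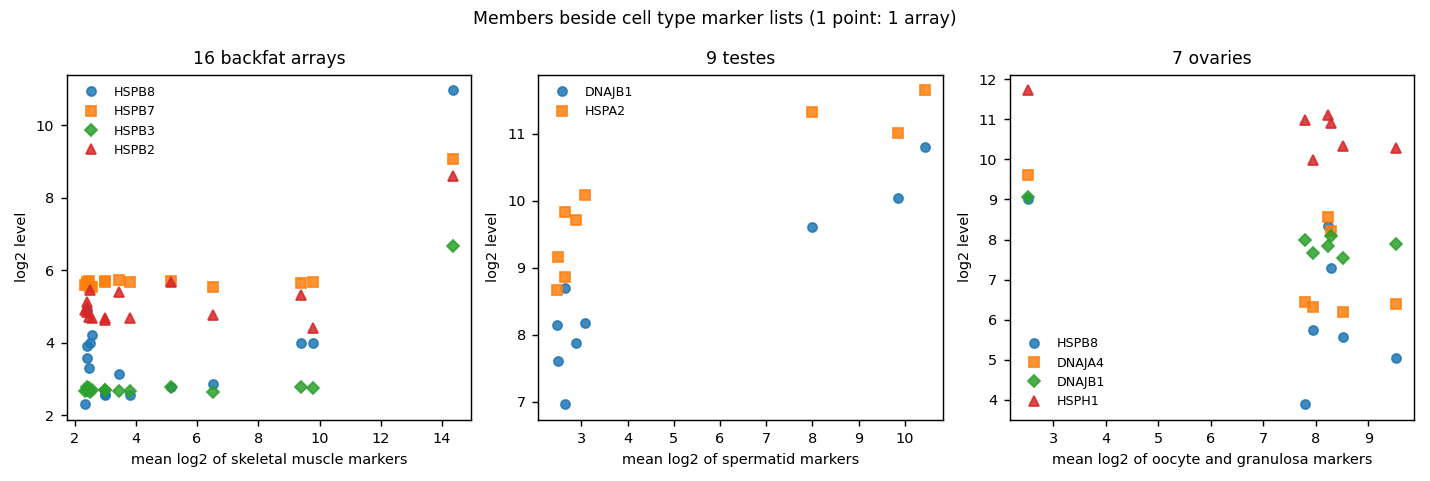
Log2 level of named members (y axis) against the mean log2 level of a cell type marker list (x axis), with 1 point for each array, in 16 backfat arrays, 9 testes and 7 ovaries. In backfat 1 array at 14.36 in muscle markers carries the high values of HSPB8, HSPB7, HSPB3 and HSPB2, in testis 3 arrays with spermatid markers carry the high values of DNAJB1 and HSPA2, and the ovary array at 2.53 in oocyte and granulosa markers is the highest for HSPB8, DNAJA4, DNAJB1 and HSPH1.

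Testis was then compared with ovary directly, over the 16 gonads, with a call at an adjusted p below 0.05. In this comparison 14 members were higher in testis and 10 higher in ovary, 25.0% and 17.9% of the 56, where 19.6% and 16.6% of all named genes were called. The median difference was 0.03 for the members and 0.02 for all named genes.

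On the testis side the largest differences were 1.39 ± 0.21 for HSPB2 (adjusted p = 3.4e-04), 1.22 ± 0.12 for DNAJA1 (adjusted p = 1.2e-05), 1.15 ± 0.22 for DNAJB9 (adjusted p = 0.0019) and 0.90 ± 0.19 for DNAJC5 (adjusted p = 0.0031), the cysteine string protein of secretory vesicles. HSPB2 ranged from 5.07 to 7.19 in testis and from 4.26 to 6.10 in ovary, with overlap. DNAJB9 ranged from 9.12 to 10.79 in testis and from 8.14 to 8.89 in ovary, with none. Mitochondrial genes on this side were HSPA9 (0.88 ± 0.11), DNAJC19 (0.75 ± 0.14) and HSPD1 (0.46 ± 0.14), while HSPE1 differed by 0.07 ± 0.07 and was not called. DNAJB6, DNAJA2, DNAJB11, PDIA6, HSPA6, DNAJC24 and CCT7 completed the 14, with differences between 0.34 and 0.56.

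On the ovary side stood DNAJC9 (-1.60 ± 0.39, adjusted p = 0.0087), HSPH1 (-1.17 ± 0.32, adjusted p = 0.0169), PDIA4 (-1.10 ± 0.13, adjusted p = 6.9e-05) and HSP70.2 (-1.05 ± 0.25, adjusted p = 0.0072). PDIA4 ranged from 8.27 to 9.34 in testis and from 9.79 to 10.21 in ovary, with no overlap, and HSPH1 from 8.66 to 10.63 and from 9.98 to 11.72, with overlap. The other 6 were DNAJC17, HSPA8, HSP90AB1, PDIA3, HSP90B1 and HSPA5, with sizes between 0.32 and 0.75. Of the reticulum genes, HSPA5, HSP90B1, PDIA3 and PDIA4 were thus higher in ovary, and PDIA6, DNAJB9 and DNAJB11 higher in testis. With the probeset of largest SD, PDIA3 came to -0.06 (adjusted p = 0.824) and the call of HSP90B1 was lost (-0.44, adjusted p = 0.114), and with quantile normalization that of PDIA6 was lost (0.29, adjusted p = 0.0547).

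The array labelled ovary of IBF25 had the highest ovary value of HSPH1 (11.72), HSP70.2 (12.64), DNAJB1 (9.07), DNAJA1 (12.44), DNAJA4 (9.61) and HSPB8 (9.02). Without this array the difference was -0.95 for HSPH1 (adjusted p = 0.0219) and -0.84 for HSP70.2 (adjusted p = 0.0039), and CCT6A (0.55) and HSPA13 (-0.59) were called as well. Without the 3 testes with spermatid markers CCT7, DNAJB6 and HSPA6 lost their calls. Without the Youli ovary of YLF21 the calls of HSPH1 (-1.08, adjusted p = 0.0561), DNAJB6, HSPD1 and CCT7 were lost. The calls of HSPD1 and CCT7 were each lost in 8 of the 16 fits that left out 1 animal, and that of HSPA5 was lost with array median centring (-0.22, adjusted p = 0.0549). The sign of HSPA8 depended on the probeset, with -0.55 for the one used and 0.86 for the one with the largest SD, and so did that of DNAJB6, with 0.56 and -0.81. HSP90AA1, not called at -0.32 (adjusted p = 0.171), came to 1.62 (adjusted p = 3.0e-05) with its probeset of largest SD.

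Breeds were compared within each tissue, over 4 animals a breed in the 4 non-gonadal tissues, 2 or 3 in testes and 1 or 2 in ovaries, and 0 of the 56 members passed the moderated F test in limma at an adjusted p of 0.05 in any tissue. Over all named genes the share called was 0.192% in the hypothalamus, 0.695% in the thyroid, 0.281% in the adenohypophysis, 0.665% in backfat and 0% in testes and in ovaries. At an unadjusted p below 0.05 there were 16 members in testes (18.51% of all named genes), 15 in the thyroid (17.44%), 14 in the hypothalamus (16.14%), 7 in the adenohypophysis (15.68%), 6 in backfat (19.02%) and 3 in ovaries (7.38%). Of the 56 members these were 28.6%, 26.8%, 25.0%, 12.5%, 10.7% and 5.36%. Breed, mean age and mean weight cannot be told apart here, and each breed stands for 4 animals.

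When the 4 non-gonadal tissues of an animal were averaged, 1 member, DNAJB6, passed, where 1.05% of named genes did. DNAJB6 (MRJ) keeps polyglutamine proteins soluble. The 4 means were 10.12, 10.16, 10.17 and 10.28 in Large White, 10.01, 10.01, 10.03 and 10.10 in Youli, 9.74, 9.79, 9.98 and 10.02 in Duroc and 9.80, 9.81, 9.89 and 10.03 in Iberian pigs. Large White lay above all Duroc, Youli and Iberian animals, and Duroc and Iberian overlapped. The moderated F was 18.75 (adjusted p = 0.0185). The call was lost without LWM04 or LWF05 (adjusted p = 0.0544 and 0.0504), and with the probeset of largest SD or the mean of the probesets (adjusted p = 0.163 and 0.331). It was also lost with the dim filter (0.0769) and with no sex covariate (0.0642), where DNAJA2 was called in its place (0.0372). With the 64 separate arrays and the animal as a replicate block, 6 members were called, DNAJB6, CALR, CCT8, DNAJA2, HSPA14 and HSPE1, which is 10.7% of the members where 13.9% of all named genes were called.

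DNAJA2, a type I J protein of the cytosol, came next. Its thyroid values were 7.53, 7.55, 7.61 and 7.66 in Duroc, 7.66, 7.78, 7.96 and 8.10 in Iberian, 8.06, 8.10, 8.21 and 8.38 in Large White and 7.93, 8.12, 8.20 and 8.39 in Youli pigs. By array title Duroc was lowest, and its highest value equalled the lowest Iberian one at 2 decimals. For every Duroc and Iberian thyroid array the title disagreed with the label fields, so this order rests on the titles. The means of the 4 tissues, also those of DNAJB6, include these arrays. The adjusted p was 0.0642 in the thyroid, 0.0773 in backfat, where Duroc again held the 4 lowest values (8.14 to 8.42), and 0.0589 for the mean of the 4 tissues. With quantile normalization the thyroid value was 0.0438.

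In testes the smallest p was that of HSPB8, whose values were 8.22 and 8.29 in Duroc and 8.60 and 9.06 in Iberian, against 5.73 and 6.06 in Large White and 4.47, 6.32 and 6.34 in Youli males. The pairs of Duroc and Iberian lay above all others, with a moderated F of 14.45 and an adjusted p of 0.155. The lowest 2 breeds include the testes with spermatid markers, YLM19, YLM20 and LWM02. In the other tissues the smallest adjusted p was 0.208 for HSPA5 in the hypothalamus, where Youli was lowest with 11.73 to 12.10, 0.230 for PDIA3 in the adenohypophysis and 0.594 for DNAJA1 in ovaries.

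Males and females were compared in the 4 non-gonadal tissues, and 0 of the 56 members were called in any, where 0.650% of named genes were called in the adenohypophysis, 0.0739% in the thyroid, 0.0443% in the hypothalamus and 0.0148% in backfat. At an unadjusted p below 0.05 there were 7 members in the adenohypophysis (12.5% of them, where 10.2% of all named genes passed), 1 in hypothalamus (1.82% of named genes), 1 in thyroid (5.08%) and 0 in backfat (2.31%). The smallest p in the adenohypophysis was that of HSPB8, with a mean of 8.20 ± 0.23 (SD, 9 males) and 8.64 ± 0.19 (SD, 7 females), a difference of -0.41 ± 0.11 (SE) and an adjusted p of 0.212 in limma. The smallest in the other tissues belonged to DNAJB14 in the hypothalamus (-0.16), HSPB11 in the thyroid (0.40) and DNAJB6 in backfat (0.14), with adjusted p between 0.964 and 0.999.

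Spread between animals also differed. The median SD of the 56 genes over all animals was lowest in hypothalamus and adenohypophysis (0.22 and 0.23), then 0.28 in the thyroid, 0.30 in testis and 0.31 in ovary, and 0.36 in backfat. The largest SDs were those of HSPB8 in backfat (2.04), ovary (1.85) and testis (1.57), HSPA2 in backfat (1.63), DNAJA4 in ovary (1.38) and DNAJB1 in testis (1.25). Several of these include arrays that stood apart. HSPB8 in backfat was at 10.96 in YLM19, against a median of 3.45. The array labelled ovary of IBF25 held the highest ovary values of HSPB8 (9.02, median 5.75) and DNAJA4 (9.61, median 6.45). For DNAJB1 the highest testes were those with spermatid markers. HSPA2 in backfat ran from 4.13 to 9.27 (median 6.65), a span that no single array carried.

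Pairs of chaperones that share a pathway were then followed across the 16 animals within each non-gonadal tissue. In all 10 pairs in 4 tissues gave 40 relations, of which 18 passed a permutation p below 0.05 after adjustment over the 40 by Pearson's r and 12 by both r and Spearman's rho. The share that passes among other pairs of genes was not computed. Whether 12 of 40 is more than any pairs of genes give was therefore not tested. The 12 relations had r between 0.67 and 0.90, between 0.57 and 0.91 on values centred by breed, and between 0.47 and 0.82 without the 2 animals farthest from the median of the first gene.

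Genes of the reticulum went together in the thyroid and in backfat. In backfat HSPA5 correlated with HSP90B1 at r = 0.87 and rho = 0.84 (adjusted permutation p = 6.0e-04 and 0.0021), and at r = 0.82 without the 2 farthest animals. With PDIA4 it was r = 0.84 and with PDIA6 r = 0.67. In the thyroid the 3 values were 0.76, 0.76 and 0.71, and they were 0.57, 0.49 and 0.47 without the 2 farthest animals. In the hypothalamus and the adenohypophysis 0 of these 6 relations passed by both measures, and PDIA4 (r = 0.60) and PDIA6 (r = 0.61) passed by r alone in the hypothalamus. HSPA5 with CALR did not pass in any tissue, with r between -0.20 and 0.39.

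Among cytosolic genes HSPH1 went with DNAJA1 in the thyroid (r = 0.90, rho = 0.83, adjusted permutation p = 6.0e-04 and 0.0021), in backfat (r = 0.83) and in the adenohypophysis (r = 0.72). In the hypothalamus r was 0.07. HSPH1 went with HSPA8 in the hypothalamus (r = 0.78) and the adenohypophysis (r = 0.71), and only by r in the thyroid (r = 0.80, rho = 0.57, r = 0.35 without 2 animals) and in backfat (r = 0.58). HSPH1 with HSP90AA1 passed in the thyroid (r = 0.74) and only by r in backfat (r = 0.62). HSPH1 with DNAJB1 passed in no tissue by both measures, and in backfat by r (r = 0.62).

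HSPD1 and HSPE1, which share a promoter in human, did not pass in any tissue, with r between -0.03 and 0.39. HSPA5 with HSPH1, a pair from different compartments, had r between -0.08 and 0.32, although r in the thyroid was 0.76 without the 2 farthest animals. Against the mean of the immediate early genes, 8 relations of DNAJB1 and HSPH1 were computed after seeing the data and 0 passed, the highest r being 0.50 for DNAJB1 in backfat (adjusted permutation p = 0.380).

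**Figure D5:**
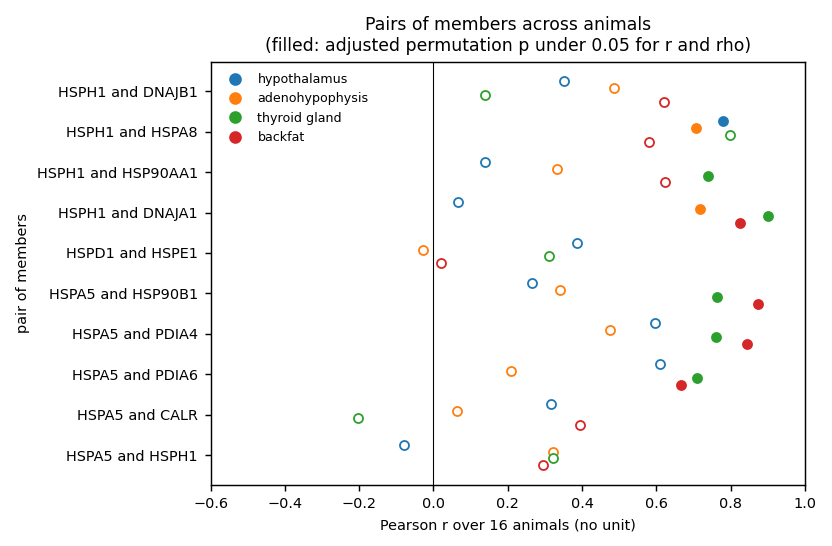
Pearson r (x axis, no unit) over 16 animals for 10 pairs of members (y axis) in the 4 non-gonadal tissues (colours). Filled points have an adjusted permutation p below 0.05 for both r and rho, and the highest is HSPH1 with DNAJA1 in the thyroid gland at 0.90.

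Other folding factors were taken from lists of genes that the naming rule does not cover. Of 34 measured endoplasmic reticulum factors (of 49 listed), 12 were higher and 2 lower in the adenohypophysis, 1 higher and 12 lower in the hypothalamus, and 4 higher and 1 lower in the thyroid. Of all named genes, 9.12% were higher and 12.5% lower in the adenohypophysis, and 12.7% higher and 17.4% lower in the hypothalamus. In the thyroid these shares were 9.90% and 9.45%. Their median difference was 0.70, -0.65 and 0.20 in these tissues. SDF2L1, a partner of HSPA5, was higher by 2.75 in the adenohypophysis and by 2.45 in the thyroid. MANF, which is secreted under stress of the reticulum, was higher by 1.65 and 1.01, and CRELD2 by 1.58 and 1.40. The collagen chaperone SERPINH1 (HSP47) and the prolyl isomerase FKBP10, also of collagen, were lower in the hypothalamus (-3.02 and -3.72) and higher in ovary (2.29 and 2.90).

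Of 13 measured genes of the unfolded protein response and of degradation from the reticulum (36 listed), 4 were higher in the thyroid and 4 lower in the hypothalamus, beside 9.90% and 17.4% of all named genes. The 4 genes of both counts were EDEM2 (1.84 and -1.18), CREB3L2 (1.65 and -3.05), DERL1 (1.37 and -1.42) and XBP1 (1.26 and -1.45). In the adenohypophysis 0 of the 13 were called in either direction. XBP1, the transcription factor of the IRE1 branch, had a difference of 0.88 there.

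Of 32 measured co-chaperones (41 listed), 5 were higher and 1 lower in testis and 2 higher and 4 lower in backfat, beside 10.9%, 9.84%, 13.1% and 11.9% of all named genes. BAG6, which guards newly made membrane proteins, was 2.38 higher in testis, and BAG3, the partner of HSPB8, 1.99 higher in backfat. CRYAB, a small heat shock protein of lens, muscle and glia, was 3.56 higher in the hypothalamus. Of 10 mitochondrial factors (20 listed), 5 were higher in testis and 0 lower, beside 10.9% and 9.84% of all named genes, among them GRPEL1 (1.42), the exchange factor of HSPA9, and TIMM44 (1.34), its anchor at the inner membrane. Of 10 prefoldin and tubulin folding genes (15 listed), 1 was called in any tissue, TBCC, 1.01 higher in the thyroid.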

How the data were processed

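Total RNA of 80 tissue pieces was hybridised to the Affymetrix GeneChip Porcine Genome Array, 1 array for each animal and tissue. All arrays were normalized by the authors in 1 run of GCRMA, which corrects background by probe sequence, quantile normalizes and summarises the probes, and the deposited values are log2 intensities of 24123 probesets. Quantile normalization gives the probes of all arrays 1 distribution, so that differences are relative to the other genes of the array. Of the probesets, 124 controls were left out and 23999 were tested, of which 10069 had 1 gene symbol in the platform annotation, 198 several and 13732 none. Probesets with several symbols or none named no gene. Over the 80 arrays, array medians lay between 4.67 and 5.04. The number of arrays limits the precision. In the gonad, breed and sex fits, with 1 value for each animal, p-values measure the spread between animals. In the tissue fit they measure the residual spread over the 80 arrays, with the 5 arrays of an animal taken as independent.

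Tissue, testis against ovary, breed and sex were tested with limma (version 3.58.1, R 4.3.3, lmFit and eBayes), and p-values were adjusted by Benjamini-Hochberg over all 23999 probesets. Breed and sex were covariates of the tissue fit, where sex is estimated from the 4 non-gonadal tissues, breed of the gonad fit, sex of the breed fits except within testes and ovaries, and breed of the sex fits. Correlations used Pearson's r and Spearman's rho with two-sided permutation p-values (100000 resamples, scipy 1.17.1, Python 3.11.15), adjusted over 40 relations. Cell type marker levels are means of log2 values over the measured genes of a list. The fits were tested on simulated data with 200 shifted probesets.

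Of the 56 genes, 33 had 1 probeset and 23 had more. Of the 41 other probesets, 18 correlated with the one used at r of at least 0.7 and 19 at r below 0.5. Genes named in the text were the 4 called members of largest and the 3 of smallest difference in each tissue, the 4 of largest difference in each direction between the gonads, the members called by breed or sex or, where none was called, the member of smallest p, the 4 of largest SD, and a set of well known chaperones. DNAJA2, DNAJC5, DNAJC19, DNAJC24, DNAJB14, the called members below these ranks and the examples from other folding lists were chosen after their values were seen, and members that were named only in a list of calls complete that list. The members and lists were chosen with earlier results of these data known.

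Arrays of the same number came from the same animal, as the titles give it. Residuals of arrays of the same animal correlated at a mean r of 0.15 over 200 probesets, against -0.02 for different animals. Alternatives were array median centring, quantile normalization, the probeset of largest SD or the mean of a gene's probesets, a filter at a mean log2 of 4, a log2 difference of 2, no sex covariate, the animal as a replicate block, leaving out each animal in turn, and leaving out the arrays that stood apart, which was added after seeing the data.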

Additional observations from a re-analysis of the deposited data

Results flagged for a closer look

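For the named genes, the 9 testes, the 7 ovaries and, where a gene was named for breed, the 4 animals of each breed gave 102 groups that were examined for a single value far from the rest, and 6 had one, where chance alone gives about 1 in 20. In the array labelled ovary of IBF25, the array without oocyte and granulosa markers, DNAJB1 was at 9.07 (next 8.09), DNAJB9 at 8.89 (next 8.39), DNAJC5 at 4.43 (next 5.26) and PDIA6 at 11.11 (next 11.75). In the ovary of Iberian female IBF22, HSPA9 was at 11.24, with the next at 10.84. In the backfat of Youli pigs, DNAJA2 was at 8.49 in YLF21, with the other 3 at 8.78 or higher.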

How the results depend on the processing

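Of 92 results on single genes, 70 kept their direction and call under every alternative other than the stricter difference of 2. The counts of calls changed as follows. At a log2 difference of at least 2 there were 6 members higher and 1 lower in the hypothalamus, 2 and 0 in the adenohypophysis, 1 and 2 in the thyroid, 1 and 1 in testis, 2 and 1 in ovary and 1 and 3 in backfat, by construction. The filter on dim probesets left 1 member higher in ovary, since DNAJC9 was then untested. For breed in the thyroid, 1 member (DNAJA2) was called with array median centring, quantile normalization or no sex covariate, and the cause was not tested. For breed in the mean of 4 tissues, 0 were called with the dim filter, with the probeset of largest SD or with the mean of probesets, and 6 with 64 arrays and the animal as replicate block. The replicate block changed no other count by over 1.5 times, and no paired fit was possible between testis and ovary because each animal gives 1 gonad. Of the settings added after seeing the data, leaving out the backfat of YLM19 gave 1 member by breed in backfat (CCT7). Leaving out the array labelled ovary of IBF25 gave 4 higher in ovary, with DNAJC11 and HSPA14 gained. Leaving out the 3 testes with spermatid markers gave 5 higher in testis.

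Leaving out 1 animal in turn, counts ran from 2 to 4 for lower in the adenohypophysis (4 without DUF13), from 2 to 4 for higher in ovary (4 without IBF25 or LWF06), from 0 to 1 for breed in the thyroid (1 without IBM24), in ovary (1 without IBF22) and in backfat (1 without YLM19), and from 0 to 3 for breed in the mean of 4 tissues (0 without LWF05 or LWM04, 3 without IBM24). No other count moved by over 1.5 times. The sign turned with the probeset for DNAJB6 between testis and ovary, at -0.81 with the probeset of largest SD and -0.0044 with the mean of probesets, for HSPA8 between testis and ovary, at 0.86 and 0.45, and for HSP90AA1 in backfat, at 0.0491 with the probeset of largest SD. HSP90AA1 between testis and ovary, not called in the main comparison, also turned, to 1.62 and 0.47. Of the calls near their limit in backfat, that of HSP90AA1 was lost with array median centring (-0.84). Those of DNAJB2 (-0.94), PDIA3 (-0.95) and PDIA6 (-0.94) were lost with it too, which lowers the count of 12 members lower in backfat.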
